A study of Rattus norvegicus with 8 samples.

Results

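Astrocyte genes are genes whose RNA is commonly used to tell astrocytes from the other cells of brain and spinal cord. The 9 genes described here, Gfap, Aqp4, S100b, Aldh1l1, Aldoc, Vim, Fgfr3, Slc4a4 and Sox9, were chosen by name. Every array probe other than a control spot that carried one of these names was taken, which gave 9 of the 26514 gene symbols and names and 16 of the 30367 probes. The question is how these genes differ, gene by gene, between control rats and rats put through chronic water avoidance (WA) stress, and whether Gfap differs from the other astrocyte genes.

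Lumbar spinal cord of segments L6S1 came from 4 stressed and 4 control male Wistar rats, all 12 weeks old. The stressed rats stood on a small platform above water for 1 h per session on 10 days, control rats were handled only, and tissue was taken 24 h after the last session. The cord was flushed out of the spine and freed of meninges, so each sample is a mixture of all its cell types and no astrocytes were isolated. RNA of each rat was hybridised to 1 Agilent rat gene expression array with the dye Cy3, so there is 1 array per rat and 4 rats per group.

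Astrocytes take up transmitters and potassium around synapses, hold water channels at blood vessels and pass metabolites to neurons. When nervous tissue is injured or inflamed they enlarge and make more intermediate filament protein, above all GFAP, and in the spinal cord such reactive astrocytes have been linked to lasting pain. Transcription of Gfap can be raised through the cytokine receptor subunit gp130 and the transcription factor STAT3.

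Each value below is the log2 signal of a probe minus the log2 of the 75th percentile of all spots of its array, and each difference is stressed minus control on that scale. A negative value means only that the probe was dimmer than that percentile. Signals of different probes are not set against each other as amounts of RNA, since probes differ in how brightly they bind. Before scaling, the 75th percentile of the control arrays was an intensity of 2156 ± 228 (SD, n = 4), and that of the stressed arrays was 1871 ± 87.1 (SD, n = 4), with a two-sided exact permutation p of 0.114. Control replicate 2, at 1841, lay within the stressed range of 1751 to 1945, and the other control arrays were at 2139, 2311 and 2335. Exact tests here are two-sided over all 70 choices of 4 of the 8 arrays, and the smallest p they can give is 0.0286. Each of the 16 probes was well above background on all 8 arrays, and 0 were saturated. How precise a difference can be is limited by the number of arrays.

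Control replicate 2 stood apart from the other control rats. On the axis of greatest variation among all tested probes, with 54.1% of the variance, it had a score of 46.1 against -52.1, -56.3 and -39.4 in control replicates 1, 3 and 4, and the stressed rats had 34.5, 25.7, 33.2 and 8.23. When the arrays were clustered into a pair of groups by their correlation, control replicate 2 fell with the 4 stressed rats. Every difference over all rats below counts it as a control, as the labels do, and whether that label is right could not be checked from the files. The 75th percentile before scaling set it apart in the same way, and so did the log2 signal of the upstream (5′) probe minus that of the downstream (3′) probe, as the median over 2027 transcripts whose probes lie 300 bases or more from each other. Centred over the arrays, this 5′ minus 3′ difference was -0.27, 0.19, -0.27 and -0.16 in control replicates 1 to 4 and 0.16, 0.14, 0.15 and 0.09 in stressed replicates 1 to 4. The group means were -0.13 ± 0.22 (SD, n = 4) and 0.13 ± 0.03 (SD, n = 4), with an exact permutation p of 0.143. All stressed arrays lay in row 1 of the slide and all control arrays in row 2, so row and group cannot be told apart. In both groups, replicates 1 to 4 lay in columns 1 to 4, so rats with the same number share a column. Many results are therefore also given without control replicate 2 and from a fit with a covariate for the 5′ minus 3′ difference. Within the groups this covariate varied mostly through control replicate 2, the only control rat on the stressed side of it. The covariate fit therefore leans on that rat and is not a check independent of the fit without it.

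At an adjusted p below 0.1, limma called 0 of the 9 genes and 0 of the 16 probes, beside 3.74% of the 23677 tested probes. At an unadjusted p below 0.05, 1 of the 9 genes (Sox9) and 3 of the 16 probes passed, beside 20.3% of all tested probes, so neither count stood above the share of the array. The brightest probe stood for each gene. By that probe 8 genes had a higher mean in stressed rats and 1, Aldh1l1, a lower one, but 7 were higher and 2 lower after quantile normalization, after scaling to the median of each array or without stressed replicate 3. Of the 23677 tested probes, 14105 had a higher mean in stressed rats, but 10630 after quantile normalization and 9925 with the median of each array. The median difference of the 9 genes was 0.23, beside 0.06 for all tested probes. Scaling to the median of each array moved the median of all tested probes to -0.06 and that of the 9 genes to 0.11. The gap between the median of the 9 genes and that of all tested probes was 0.17 with the 75th percentile, 0.25 after quantile normalization, 0.15 after normexp correction and 0.02 with the 5′ minus 3′ covariate. In bulk tissue, fewer astrocytes and less RNA of these genes per astrocyte cannot be told apart, and the same holds for more.

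Without control replicate 2, limma called 4 of the 9 genes and 9 of the 16 probes, all of them higher in stressed rats, beside 42.4% of all tested probes. Those 4 genes were Gfap, Fgfr3, Slc4a4 and Sox9, and their number is near the share of all probes. Leaving out any other rat gave 0 of 9 genes, beside 0 to 72 of the 23677 tested probes. With the covariate for the 5′ minus 3′ difference, 1 of the 9 genes was called, Fgfr3 and lower, beside 9.79% of all tested probes, and 4 genes were higher and 5 lower. Array weights, which gave control replicate 2 a weight of 0.107, led limma to call 6 of the 9 genes, beside 50.6% of all tested probes. Those weights were estimated from the same arrays and group labels, so that fit comes near to leaving this rat out. The control and stressed rats did not overlap at 0 of the 9 brightest probes and at 1 of the 16 probes, an Aldoc probe, beside 12.1% of all tested probes.

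**Figure D1:**
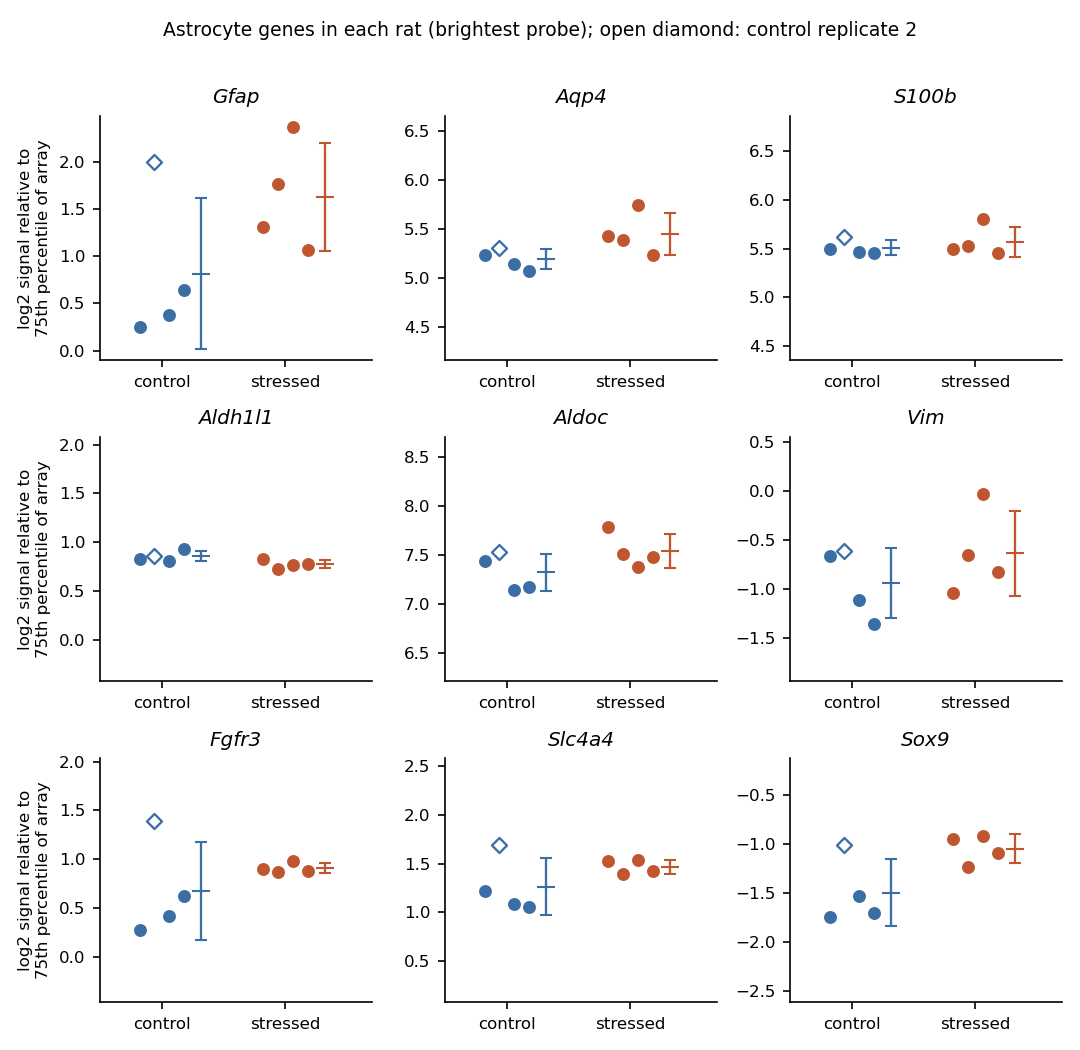
Brightest probe of each astrocyte gene, as log2 signal above or below the 75th percentile of its array (vertical axes), in each control (blue) and stressed (orange) rat, with the mean and SD of each group beside the points. The open diamond is control replicate 2, which was the highest control rat for every gene except Aldh1l1.

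Gfap encodes glial fibrillary acidic protein, the main intermediate filament of astrocytes. Its only probe lies at chr10:92060835-92060894 on the minus strand of rn4, the genome assembly the files use. It read 0.25, 1.99, 0.38 and 0.64 in control replicates 1 to 4 and 1.31, 1.76, 2.37 and 1.07 in stressed replicates 1 to 4. All stressed rats lay above control replicates 1, 3 and 4, but control replicate 2 lay above all stressed rats except replicate 3, so the groups overlapped. Control rats had a mean of 0.82 ± 0.80 (SD, n = 4), and stressed rats one of 1.63 ± 0.57 (SD, n = 4). The difference of 0.81, or 1.75-fold, had a 95% confidence interval from -0.19 to 1.81 and did not pass the test (standard error 0.43, adjusted p = 0.322 from limma). The exact permutation test on the same 8 values gave p = 0.143, with 1 of the 4 stressed rats above all controls. It was a larger difference than that of 95.9% of the tested probes. The spread was large as well, since the SD of Gfap exceeded that of 94.8% of the tested probes among control rats and 95.8% among stressed rats. The probe was printed in 10 spots per array, and the SD between those spots, which measures printing and scanning only, was at most 0.06.

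Control replicate 2 carried 1.57 more Gfap signal than the mean of the other control rats, on the log2 scale. Without it, Gfap rose by 1.20 (standard error 0.30, limma adjusted p = 0.0234), within a range of adjusted p from 0.00842 to 0.794 over all alternatives tried. With any other rat left out, the difference lay between 0.56 and 1.0 and the adjusted p between 0.296 and 0.568. With the 5′ minus 3′ covariate, the Gfap difference was -0.18 (standard error 0.34, adjusted p = 0.794), the opposite sign, in a fit that leans on control replicate 2. Gfap was higher in stressed rats under each of the 3 other background corrections and scalings tried, with differences of 0.79 after normexp correction, 0.80 after quantile normalization and 0.69 with the median of each array.

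Vim encodes vimentin, an intermediate filament protein found beside GFAP in many astrocytes and also in ependyma, endothelium and fibroblasts. Its probe read -0.66, -0.62, -1.11 and -1.36 in control replicates 1 to 4 and -1.04, -0.65, -0.03 and -0.82 in stressed replicates 1 to 4. Stressed replicate 3, also the highest rat for Gfap, was the only stressed rat above all controls, and the groups overlapped. The difference was 0.30 (standard error 0.25, limma adjusted p = 0.512), and the exact permutation p was 0.343. Without control replicate 2 the difference was 0.41 (adjusted p = 0.282), but it was 0.10 without stressed replicate 3 and 0.16 without control replicate 4. With the 5′ minus 3′ covariate it was 0.11, and the adjusted p ranged from 0.157 to 0.885 over all alternatives. Meninges and fibroblasts also make Vim, so their markers were read beside it. The summed signal of those 10 genes was 3.32, 2.51, 2.75 and 1.86 in control replicates 1 to 4 and 1.80, 2.38, 2.93 and 2.01 in stressed replicates 1 to 4, on the same log2 scale. The stressed rats had the same order by this sum as by Vim, with replicate 3 highest and replicate 1 lowest, and control replicate 4 was the lowest control rat in both. Control replicate 2, the highest control rat for Vim, was only the third by the sum, and the group means moved in opposite directions, the sum from 2.61 in control to 2.28 in stressed rats. The brightest of these genes was Ogn, and all 10 were well above background on all 8 arrays. In stressed rats 10 of 10 had a lower mean, beside 9572 of the 23677 tested probes. Limma called 0, beside 3.74% of all tested probes, with 0 at an unadjusted p below 0.05, beside 20.3%. Without control replicate 2, 1 was called lower, beside 42.4% of all tested probes. Their part in the Vim values was not tested.

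Aqp4 encodes aquaporin-4, the water channel of astrocyte endfeet, and was measured by 3 probes of 1 transcript. The brightest, nearest the 3′ end, read 5.23, 5.30, 5.14 and 5.07 in control replicates 1 to 4 and 5.43, 5.39, 5.74 and 5.23 in stressed replicates 1 to 4. Here 3 of the 4 stressed rats lay above all controls, and only stressed replicate 4 fell among them. The difference of 0.26 (standard error 0.12, adjusted p = 0.263 from limma) did not pass the test, and the exact permutation p was 0.0857. It was 0.30 without control replicate 2 (adjusted p = 0.106) and 0.16 with the 5′ minus 3′ covariate, and the adjusted p ranged from 0.0393 with array weights to 0.576 over all alternatives.

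The Aqp4 probe farthest upstream, 3854 bases before the brightest, gave a different picture. It covers the end of the coding sequence and is shown because control replicate 2 stood out far more at this probe than at the 3′ one. It lies at chr18:6630285-6630344 of rn4 on the minus strand, and the capitals mark the stop codon.
Aqp4 upstream probe: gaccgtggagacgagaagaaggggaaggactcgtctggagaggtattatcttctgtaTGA
This probe read -0.73, 0.55, -0.83 and -0.56 in control replicates 1 to 4 and 0.39, 0.23, 0.62 and 0.19 in stressed replicates 1 to 4. All stressed rats lay above control replicates 1, 3 and 4, and control replicate 2 lay within the stressed range. The difference was 0.75 (standard error 0.30, adjusted p = 0.220 from limma), 1.06 without control replicate 2, which passed, and -0.01 with the covariate. The middle probe read -0.14, 1.04, -0.36 and 0.15 in control replicates 1 to 4 and 0.68, 0.56, 1.0 and 0.63 in stressed replicates 1 to 4. Its difference was 0.55 (standard error 0.29) with all rats and 0.83 without control replicate 2, which passed, and -0.17 with the covariate. There control replicate 2 was the highest of all 8 rats.

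Slc4a4 encodes a sodium bicarbonate cotransporter of the astrocyte membrane. Its brightest probe read 1.22, 1.69, 1.09 and 1.06 in control replicates 1 to 4 and 1.52, 1.40, 1.54 and 1.42 in stressed replicates 1 to 4. The 4 stressed rats lay close together, above control replicates 1, 3 and 4 and below control replicate 2. The difference of 0.21 (standard error 0.14, adjusted p = 0.431 from limma) did not pass with all rats. Without control replicate 2, Slc4a4 rose by 0.35 (adjusted p = 0.0103), and with the covariate the difference was -0.11, within a range of adjusted p from 0.00828 to 0.697 over all alternatives. At the second probe, 3273 bases upstream, the difference was 0.11 (standard error 0.10), and its sign turned after quantile normalization (-0.04), with the median of each array (-0.01) and with the covariate (-0.04).

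S100b encodes a small calcium-binding protein of the astrocyte cytoplasm, which some oligodendrocytes and Schwann cells also make. Its brightest probe read 5.50, 5.62, 5.46 and 5.45 in control replicates 1 to 4 and 5.50, 5.53, 5.80 and 5.45 in stressed replicates 1 to 4. The groups covered nearly the same range, apart from stressed replicate 3. The difference of 0.06 had a 95% confidence interval from -0.16 to 0.28 (adjusted p = 0.721 from limma), and its sign turned with the median of each array, where it was -0.06, with the covariate (-0.03) and without stressed replicate 3, where it was -0.02. The second probe, 110 bases away, gave 0.04 (standard error 0.15), but -0.14 after quantile normalization and -0.08 with the median of each array.

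Aldh1l1 encodes a folate enzyme often used to mark astrocytes throughout the cord. Its probe, for which the files give no position, read 0.83, 0.86, 0.81 and 0.93 in control replicates 1 to 4 and 0.83, 0.72, 0.77 and 0.78 in stressed replicates 1 to 4. Of the stressed rats, 3 lay below all controls, and control replicate 2 was in the middle of its group. The difference was -0.08 (standard error 0.06, adjusted p = 0.477 from limma), with a 95% confidence interval from -0.23 to 0.06 and an exact permutation p of 0.0571. It was -0.08 without control replicate 2 (adjusted p = 0.317) as well, and it stayed between -0.20 and -0.06 over all alternatives, with adjusted p from 0.218 to 0.724. The SD of this probe among control rats exceeded that of only 5.46% of the tested probes.

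Aldoc encodes aldolase C, a glycolytic enzyme of astrocytes and of some neurons. The brightest probe read 7.43, 7.53, 7.14 and 7.17 in control replicates 1 to 4 and 7.78, 7.51, 7.38 and 7.48 in stressed replicates 1 to 4. Stressed replicate 1 lay above all controls, and the other stressed rats lay within the control range. Its difference was 0.22 (standard error 0.13, adjusted p = 0.353 from limma), but -0.32 after quantile normalization. The second probe read 4.28, 4.45, 4.29 and 4.40 in control replicates 1 to 4 and 4.56, 4.49, 4.49 and 4.59 in stressed replicates 1 to 4. There all stressed rats lay above all controls, by a small margin over control replicate 2. The difference of 0.18 (standard error 0.07, adjusted p = 0.222 from limma) did not pass, while the exact permutation p was 0.0286, the smallest possible. It was 0.20 after quantile normalization and 0.06 with the median of each array. Without control replicate 2 the second probe rose by 0.21, which passed, and the brightest probe had a difference of 0.29 (adjusted p = 0.107), in a range of adjusted p from 0.0303 with array weights to 0.835 over all alternatives.

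Fgfr3 encodes a fibroblast growth factor receptor that astrocytes and their precursors carry. The brightest probe read 0.27, 1.40, 0.42 and 0.62 in control replicates 1 to 4 and 0.90, 0.87, 0.99 and 0.88 in stressed replicates 1 to 4. Control replicate 2 was the highest of all rats, the other control rats were the lowest, and the stressed rats lay between them. The difference was 0.23 (standard error 0.23, adjusted p = 0.570 from limma), with an exact permutation p of 0.40. Without control replicate 2, Fgfr3 rose by 0.47 (adjusted p = 0.00868), and with the covariate it fell by 0.35 (adjusted p = 0.0723), in a range of adjusted p from 0.00868 to 0.850 over all alternatives. Both calls passed at 0.1 in opposite directions. They both turn on control replicate 2, which the first fit leaves out and the covariate fit leans on, so they are not separate tests.

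The second Fgfr3 probe lies 837 bases upstream, at chr14:82684049-82684108 of rn4 on the minus strand. It is shown because it had the largest difference of the 16 probes with all rats, under every background correction and scaling tried except normexp correction, where Gfap had a larger one. No part of it is in capitals.
Fgfr3 upstream probe: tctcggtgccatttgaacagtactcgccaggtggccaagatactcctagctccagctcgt
This probe read -3.93, -1.47, -3.55 and -3.35 in control replicates 1 to 4 and -2.03, -2.06, -1.75 and -2.21 in stressed replicates 1 to 4. Control replicate 2 was again the highest rat, 2.14 above the mean of the other control rats. The difference was 1.07 (standard error 0.49, adjusted p = 0.265 from limma), 1.60 without control replicate 2, which passed, and -0.22 with the covariate.

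Sox9 encodes a transcription factor of the astrocyte lineage, which ependyma also carries. Its brightest probe read -1.75, -1.0, -1.53 and -1.71 in control replicates 1 to 4 and -0.94, -1.23, -0.91 and -1.09 in stressed replicates 1 to 4. All stressed rats lay above control replicates 1, 3 and 4, and 2 of them lay above control replicate 2 too. The difference of 0.45 (standard error 0.17, adjusted p = 0.206 from limma) did not pass, and the exact permutation p was 0.0857. Without control replicate 2, Sox9 rose by 0.62 (adjusted p = 0.00473), and with the covariate the difference was 0.08, within a range of adjusted p from 0.00473 to 0.772. It was higher in stressed rats under all 18 alternatives.

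The second Sox9 probe begins at the start codon, in capitals, and is shown because it reads the same gene at the other end of its coding sequence. The files place it at chr10:102393822-102393881 of rn4 on the plus strand, 4931 bases beyond the brightest probe, which is against the order of the coding sequence, and name another transcript for it, so this pair was not compared by position.
Sox9 start probe: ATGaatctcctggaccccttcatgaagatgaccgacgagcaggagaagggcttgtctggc
It read -5.51, -4.96, -6.22 and -6.13 in control replicates 1 to 4 and -5.00, -5.23, -5.03 and -5.42 in stressed replicates 1 to 4. Control replicate 2 was the highest rat and the stressed rats lay above the other controls. The difference was 0.53 (standard error 0.28, adjusted p = 0.312 from limma), 0.78 without control replicate 2, which passed, and -0.03 with the covariate. With all rats the difference at this dim probe shrank to 0.23 after normexp correction, 0.30 after quantile normalization and 0.41 with the median of each array.

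**Figure D2:**
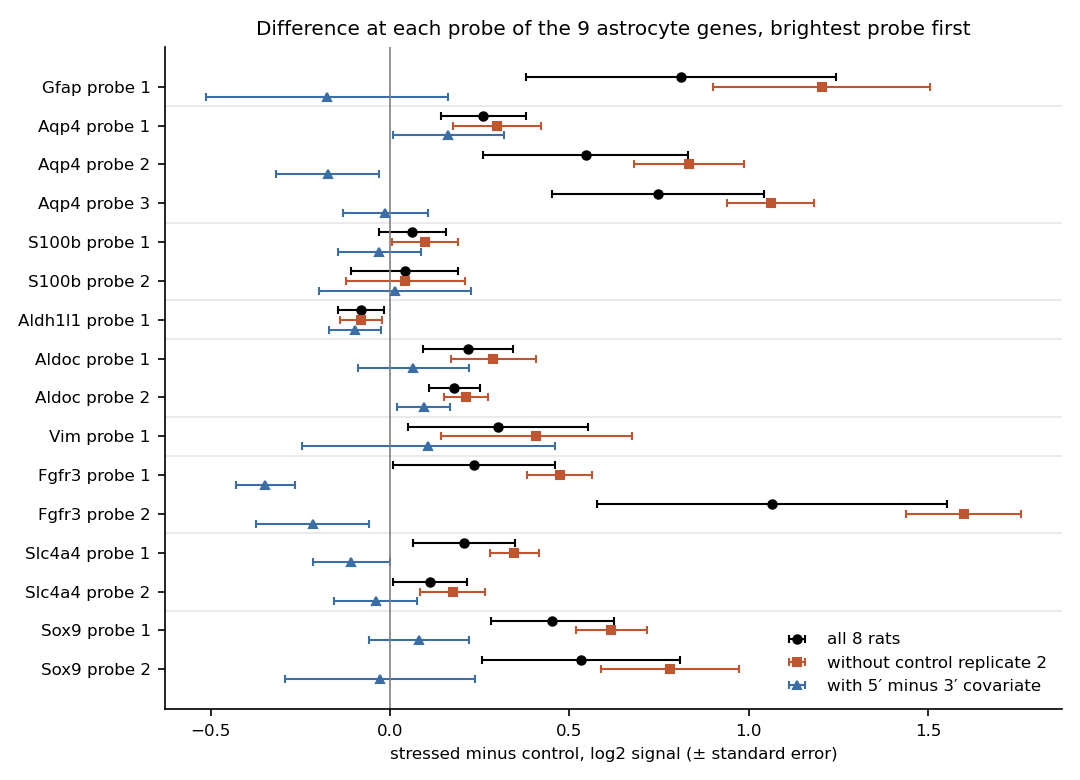
Stressed minus control difference in log2 signal (horizontal axis) at each of the 16 probes, with standard errors, for all 8 rats (black), without control replicate 2 (orange) and in the 5′ minus 3′ covariate fit (blue). Gfap stood at 0.81, 1.20 and -0.18 in these fits, and Aldh1l1 stayed below 0 in all of them.

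For 5 of the genes a pair of probes allowed the upstream and the downstream signal of the same transcript to be set apart in each rat. The upstream minus downstream log2 signal of Aqp4, centred over the rats, was -0.63, 0.58, -0.64 and -0.29 in control replicates 1 to 4 and 0.29, 0.18, 0.21 and 0.29 in stressed replicates 1 to 4. For Fgfr3 it was -0.86, 0.47, -0.63 and -0.64 in control replicates 1 to 4 and 0.41, 0.40, 0.60 and 0.25 in stressed replicates 1 to 4. In both genes control replicate 2 lay with the stressed rats and apart from the other controls, as it did in the 5′ minus 3′ difference of the whole array. The exact permutation p between groups was 0.143 for Aqp4 and 0.114 for Fgfr3. For Aldoc (710 bases apart) and S100b (110 bases) the same quantity did not set control replicate 2 apart from its group. For Slc4a4 (3273 bases) control replicate 2 lay on the other side, at -0.18 against 0.05, 0.15 and 0.17 in the other control rats and -0.02, -0.17, 0.03 and -0.03 in the stressed rats. The smallest exact permutation p of these 3 genes was 0.343, for Slc4a4. Gfap, Vim and Aldh1l1 had 1 probe each, so for them upstream and downstream signal could not be compared. The 5′ minus 3′ difference moved with the Gfap values over the 8 arrays. Its part in them is described only by the covariate fit, which leans on control replicate 2 and in which the Gfap difference was -0.18.

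**Figure D3:**
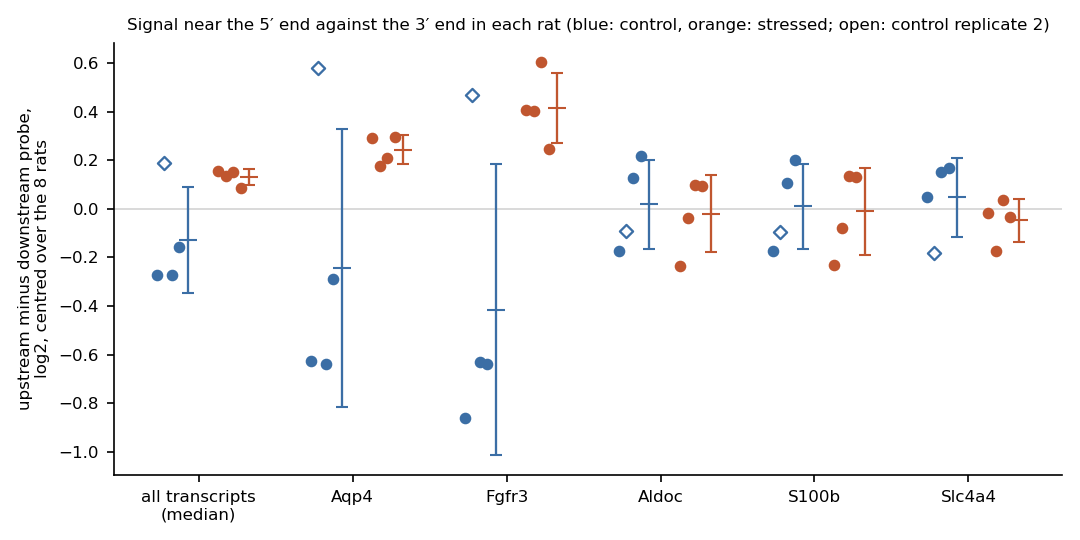
Log2 signal of the upstream probe minus that of the downstream probe, centred over the 8 rats (vertical axis), as the median of 2027 transcripts and for 5 astrocyte genes, in control (blue) and stressed (orange) rats with group means and SD. Control replicate 2 (open diamond) lay with the stressed rats for all transcripts, Aqp4 and Fgfr3, at 0.19, 0.58 and 0.47.

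Whether Gfap differed from the other astrocyte genes was tested by taking, in each array, the log2 signal of Gfap minus that of the other gene, a quantity that the scaling of the array does not touch when a single number is subtracted. Only its change between rats carries meaning, not its level. Against Vim, the other filament gene, it was 0.91, 2.61, 1.49 and 2.0 in control replicates 1 to 4 and 2.35, 2.41, 2.40 and 1.90 in stressed replicates 1 to 4. Control replicate 2 was the highest rat and the groups overlapped, with a difference of 0.51 (exact permutation p = 0.257). Against Aqp4 it was -4.98, -3.31, -4.77 and -4.43 in control replicates 1 to 4 and -4.12, -3.63, -3.37 and -4.16 in stressed replicates 1 to 4. Control replicate 2 was again the highest rat, and the difference was 0.55 (exact permutation p = 0.257). Against Slc4a4 it was -0.97, 0.31, -0.71 and -0.42 in control replicates 1 to 4 and -0.22, 0.37, 0.83 and -0.35 in stressed replicates 1 to 4. All stressed rats lay above control replicates 1, 3 and 4, and 2 lay above control replicate 2, for a difference of 0.61 (exact permutation p = 0.143).

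Against S100b, Gfap stood at -5.25, -3.62, -5.09 and -4.81 in control replicates 1 to 4 and -4.19, -3.76, -3.43 and -4.38 in stressed replicates 1 to 4. Only stressed replicate 3 passed control replicate 2, and the difference was 0.75 (exact permutation p = 0.143). Against Aldh1l1, the gene with the lower mean in stressed rats, Gfap stood at -0.58, 1.14, -0.43 and -0.29 in control replicates 1 to 4 and 0.48, 1.04, 1.59 and 0.30 in stressed replicates 1 to 4. This was the largest of the 8 differences with the 75th percentile, at 0.89 (exact permutation p = 0.143), and 1 of the 4 stressed rats lay above all controls. Against Aldoc the values were -7.18, -5.54, -6.77 and -6.53 in control replicates 1 to 4 and -6.48, -5.75, -5.01 and -6.41 in stressed replicates 1 to 4. The groups overlapped and the difference was 0.59 (exact permutation p = 0.257). After quantile normalization it was 1.12, larger than that against Aldh1l1, 0.90.

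Relative to Fgfr3, Gfap stood at -0.02, 0.60, -0.04 and 0.02 in control replicates 1 to 4 and 0.41, 0.89, 1.38 and 0.19 in stressed replicates 1 to 4. Control replicate 2 stood out less than in the comparisons with the other genes, 2 stressed rats lay above it, and the difference was 0.58 (exact permutation p = 0.114). Relative to Sox9 the values were 2.0, 3.0, 1.90 and 2.35 in control replicates 1 to 4 and 2.25, 2.99, 3.28 and 2.16 in stressed replicates 1 to 4. The groups overlapped widely, and the difference of 0.36 (exact permutation p = 0.314) was the smallest of the 8 with the 75th percentile. Relative to the upstream probes of the same genes, the difference of Gfap was 0.06 for Aqp4 and -0.25 for Fgfr3, but 0.77 for S100b, 0.70 for Slc4a4 and 0.63 for Aldoc.

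**Figure D4:**
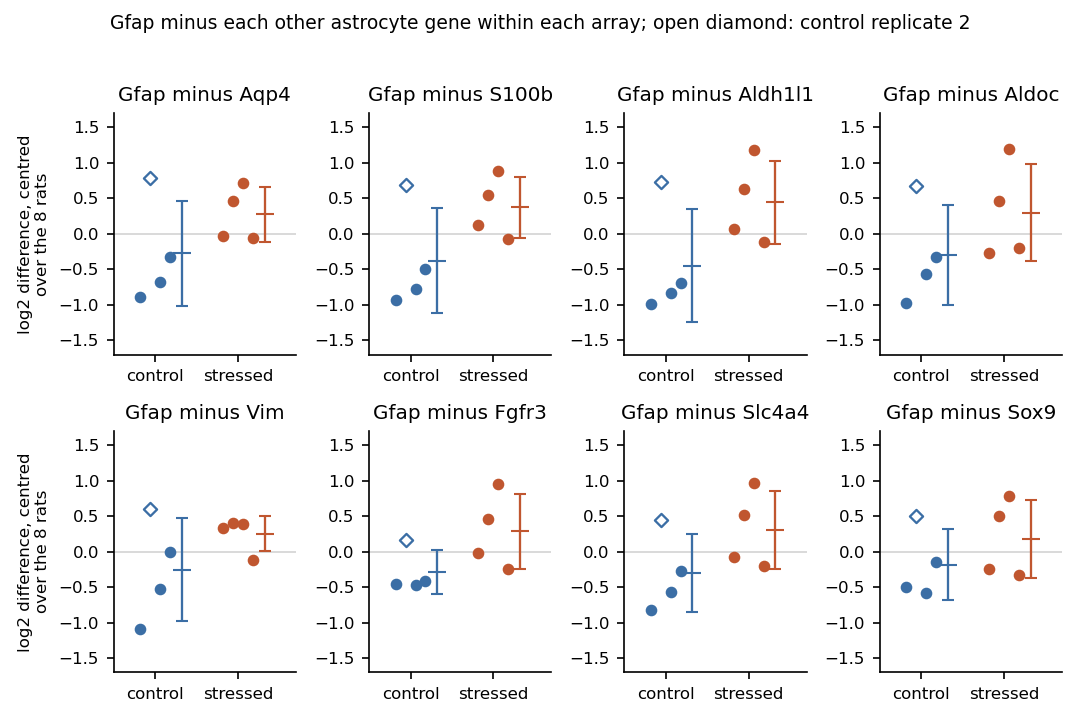
Log2 signal of Gfap minus that of each other astrocyte gene in the same array, centred over the 8 rats (vertical axes), in control (blue) and stressed (orange) rats with group means and SD. Control replicate 2 (open diamond) was the highest control rat in all 8 panels, and the differences between the group means ran from 0.36 for Sox9 to 0.89 for Aldh1l1.

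Gfap was thus higher relative to each of the 8 other genes in the mean of the stressed rats, but limma called 0 of the 8 genes and 0 of their 15 probes at an adjusted p below 0.1, beside 0.152% of all probes that Gfap was set against. At an unadjusted p below 0.05, 0 of the 8 genes passed, beside 4026 of the 23676 probes. Since each of these differences holds the same Gfap values, the moderated standard error came out as 0.49 for every probe, and an unmoderated linear model was added after seeing the data. It called 0 of the 8 genes and 0 of the 15 probes, with 0 at an unadjusted p below 0.05, beside 0% of all probes, of which 922 had an unadjusted p below 0.05. When control replicate 2 was left out, limma called 7 of the 8 genes and 10 of the 15 probes, beside 81.7% of all probes. The unmoderated model then called 6 of the 8 genes and 9 of the 15 probes, beside 71.4%. Gfap thus rose against most probes of the array in those fits, and the share of astrocyte genes is near that of all probes. With the covariate, the difference of Gfap was negative against 7 of the 8 genes, between -0.34 for Aqp4 and -0.07 for Slc4a4, and 0.17 against Fgfr3. With 1 rat left out, the difference of Gfap ran from 0.16 to 0.59 against Sox9 and from 0.23 to 0.80 against Vim. The range was 0.29 to 0.92 for Aldoc, 0.35 to 0.91 for Aqp4, 0.36 to 0.75 for Fgfr3 and 0.38 to 0.86 for Slc4a4. For S100b it was 0.564 to 1.105, and for Aldh1l1 0.645 to 1.285.

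The gene symbols whose signal was most like that of Gfap over the 8 arrays were Triobp, Fam128b, Mxi1, Jakmip3 and Tpmt, with Pearson correlations of 0.996, 0.993, 0.993, 0.992 and 0.989 among 14863 symbols. These arrays share control replicate 2 and the groups, so the correlations describe these 8 arrays and carry no test. Of the astrocyte genes, Aqp4 ranked highest, at 521 with a correlation of 0.93, followed by Fgfr3 at 597 with 0.93, both by their upstream probes, since each symbol was ranked by its probe most like Gfap. Aldh1l1 ranked lowest, at 11773 with -0.40.

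A longer list of 35 names of other astrocyte genes was read in the same fit. It holds 1 gene under both its older name, Ppap2b, and its newer name, Plpp3. Of the names, 33 were tested (Hepacam is not on the array by that name, and Plpp3 only as Ppap2b). In stressed rats 24 had a higher and 9 a lower mean, beside 14105 of the 23677 tested probes with a higher mean. The median difference of the list was 0.15 beside 0.06 for all tested probes. Limma called 1, beside 3.74% of all tested probes. It was Ppap2b, which encodes a lipid phosphatase of the membrane. Ppap2b read -2.49, -1.56, -2.35 and -1.92 in control replicates 1 to 4 and -1.16, -1.36, -1.20 and -1.11 in stressed replicates 1 to 4. The groups did not overlap. It rose by 0.88 (standard error 0.20, limma adjusted p = 0.0865). The call was lost with the 5′ minus 3′ covariate, where the difference was 0.42 (adjusted p = 0.147), and after normexp correction (adjusted p = 0.109). It was also lost with the replicate number as a block, where the difference was still 0.88 (adjusted p = 0.215). The adjusted p was between 0.166 and 0.252 with any rat other than control replicate 2 left out. Over all alternatives the adjusted p ranged from 0.00157 to 0.252. With control replicate 2 left out, 17 of the 33 were called higher and 1 lower, beside 42.4% of all tested probes (7221 higher and 2817 lower). With any other rat left out, 0 were called, beside 0 to 72 of the 23677 tested probes. Limma called 2 with the covariate, beside 9.79% of all tested probes, and 20 with array weights, beside 50.6%. With the median of each array it called 3, beside 1239 of the tested probes.

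Among the transporters and channels of that list, the glutamate transporter gene Slc1a2 had a difference of 0.42 (adjusted p = 0.277 from limma) and Slc1a3 one of -0.20 (adjusted p = 0.294) at its brightest probe and of 0.54 (adjusted p = 0.311) at the other. Slc1a2 read 0.91, 1.79, 0.93 and 1.13 in control replicates 1 to 4 and 1.71, 1.5, 1.72 and 1.5 in stressed replicates 1 to 4, with control replicate 2 again the highest rat. It passed without that rat (0.62, adjusted p = 0.00363), and with the covariate the difference was -0.08. Glul, which encodes glutamine synthetase, had a difference of 0.26 (adjusted p = 0.252), passed without control replicate 2 (0.37, adjusted p = 0.00575) and stood at -0.0016 with the covariate. The gap junction gene Gja1 read 2.5, 2.43, 2.40 and 2.41 in control replicates 1 to 4 and 2.88, 2.63, 2.64 and 2.80 in stressed replicates 1 to 4. All stressed rats lay above all controls, and control replicate 2 lay with its group. The difference of 0.30 (standard error 0.08, adjusted p = 0.120 from limma) did not pass. It was 0.30 without control replicate 2 (adjusted p = 0.0301) and 0.31 with the covariate (adjusted p = 0.135), in a range of adjusted p from 0.0124 to 0.315. The potassium channel gene Kcnj10 had a difference of 0.34 (adjusted p = 0.514), and control replicate 2 was its highest rat, at -3.64. Kcnj10 passed in opposite directions, higher by 0.65 without control replicate 2 (adjusted p = 0.00391) and lower with the covariate (-0.40, adjusted p = 0.0889). Both of those calls turn on control replicate 2 and are not separate tests. The Kcnj10 difference after normexp correction was 0.07.

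Of 12 genes of the gp130-STAT3 route, which can act on Gfap, 10 were tested (Il6r and Tyk2 are not on the array by those names). Of these, 5 were higher and 5 lower in stressed rats, with a median of 0.16 beside 0.06 for all tested probes. Limma called 1, beside 3.74% of all tested probes. It was the kinase gene Jak1, which rose by 0.43 (standard error 0.10, adjusted p = 0.0921). The adjusted p was between 0.160 and 0.260 when any rat other than control replicate 2 was left out. Over all alternatives it was between 0.00361 and 0.260. The call of Jak1 was lost with the covariate, where the difference was 0.29 (adjusted p = 0.188), with the median of each array (0.31, adjusted p = 0.128) and after normexp correction (0.40, adjusted p = 0.136). It was also lost with the replicate number as a block, where the difference was still 0.43 (adjusted p = 0.211). Jak1 read -0.58, -0.22, -0.37 and -0.29 in control replicates 1 to 4 and 0.00, 0.22, -0.00 and 0.02 in stressed replicates 1 to 4, without overlap. Stat3, the transcription factor gene, read 1.20, 1.03, 1.20 and 1.08 in control replicates 1 to 4 and 0.82, 0.88, 0.95 and 0.90 in stressed replicates 1 to 4. Every stressed rat lay below every control, opposite to Gfap in the mean. The difference of -0.24 (standard error 0.07, adjusted p = 0.136 from limma) did not pass, but -0.28 without control replicate 2 did (adjusted p = 0.0141). With array weights, where control replicate 2 counted little and 50.6% of all tested probes were called, Stat3 passed too (-0.29, adjusted p = 0.0044). It passed as well with robust estimation and a variance trend (adjusted p = 0.081). With the covariate the difference was -0.15 (adjusted p = 0.253), and the adjusted p ranged from 0.0044 to 0.35 over all alternatives. Il6st, which encodes gp130, had a difference of -0.42 (adjusted p = 0.144), and all stressed rats lay below all controls. It passed as lower without control replicate 2 (-0.34, adjusted p = 0.0595), with the covariate (-0.59, adjusted p = 0.0783), with the median of each array (-0.53) and with array weights (-0.36). Socs3, a feedback inhibitor, had a difference of 0.35 (adjusted p = 0.312), which was 0.48 without control replicate 2 and passed there (adjusted p = 0.0559), but 0.13 after quantile normalization and 0.03 with the covariate. With control replicate 2 left out, 4 of the 10 were called higher and 2 lower, beside 42.4% of all tested probes. The covariate fit called 2 of the 10, beside 9.79% of all tested probes, and array weights gave 6, beside 50.6%.

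Of 18 genes that reactive astrocytes are known to raise, 17 were tested, and Ggta1 was too dim. Limma called 0, beside 3.74% of all tested probes, with 4 of the 17 at an unadjusted p below 0.05, beside 20.3%. In stressed rats 8 had a higher and 9 a lower mean, and their median difference was -0.05 beside 0.06 for all tested probes. Nes, which encodes the filament protein nestin, had a difference of 0.03 (adjusted p = 0.948), and its sign turned after quantile normalization (-0.04) and with the median of each array (-0.09). Osmr stands in both this list and the gp130-STAT3 list. Leaving out control replicate 2 gave 1 of the 17 called higher and 2 lower, beside 42.4% of all tested probes.

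Markers of other cell types in the cord were read beside these values, with calls at the brightest probe of each gene and the same 3.74% of all tested probes called. At an unadjusted p below 0.05, 20.3% of all tested probes passed. Of the 23677 tested probes, 14105 had a higher and 9572 a lower mean in stressed rats. The oligodendrocyte precursor list came first. Its 5 genes, all tested, all well above background on all 8 arrays and with Olig1 the brightest, summed to 3.09, 3.78, 3.16 and 3.27 in control replicates 1 to 4 and 3.79, 3.83, 3.91 and 3.71 in stressed replicates 1 to 4 on the log2 scale. Control replicate 2 lay with the stressed rats in this sum, 5 of 5 genes had a higher mean in stressed rats, the median difference was 0.24, and limma called 0, with 1 at an unadjusted p below 0.05. Olig1 had a difference of 0.93 (adjusted p = 0.140), Olig2 one of 0.03 at its brightest probe, with control replicate 2 the lowest control rat, and of 1.14 (adjusted p = 0.227) at its other probe, and Pdgfra one of 0.08. The oligodendrocyte genes, 9 tested of 10 with Mbp the brightest, summed to 8.22, 8.48, 8.03 and 8.0 in control replicates 1 to 4 and 8.52, 8.44, 8.46 and 8.09 in stressed replicates 1 to 4. Of those, 7 of 9 had a higher mean in stressed rats with a median of 0.13, and 2 had an unadjusted p below 0.05. Limma called 1, Mog, which rose by 0.90. Ermn had a difference of -0.20 at its brightest probe (-0.29 without control replicate 2, which passed) and of 0.53 at a dimmer one, which passed with all rats. With the covariate the Mog difference was 0.51 (adjusted p = 0.109), and its call was lost. The part of these cell types in the astrocyte gene values was not tested.

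The lists of other cell types follow, beside the same 3.74% of all tested probes called and 20.3% at an unadjusted p below 0.05. Ependyma, which carries Vim and Sox9, had a median of 0.03 over 12 genes, with Rsph1 the brightest, 7 higher and 5 lower, and limma called 0, with 2 at an unadjusted p below 0.05. Microglia had a median of 0.02 over 10 genes, with C1qb the brightest, 6 higher and 4 lower, and limma called 0, with 0 at an unadjusted p below 0.05. Neurons had a median of 0.07 over 11 tested of 12 genes, with Nefm the brightest, and 7 were higher and 4 lower. At an unadjusted p below 0.05 there were 3, and limma called 1, Eno2, which fell by 0.37 at its brightest probe. The other Eno2 probe had a difference of -0.04 and did not pass. At the brightest probes, Nefl had the largest difference of the neuronal genes, 0.57, and did not pass (adjusted p = 0.120). Gad1 had a difference of -0.18 at its brightest probe and of 0.64 at its other probe, and neither passed. Endothelial cells had a median of 0.11 over 10 genes, with Slco1a4 the brightest, and 7 were higher and 3 lower. At an unadjusted p below 0.05 there were 2, and limma called 1, Pecam1, which rose by 0.40 (0.43 with the covariate, where its adjusted p was 0.107). Red blood cells had a median of -0.23 over 3 tested of 5 genes, with Hbb-b1 the brightest, and limma called 0, with 0 at an unadjusted p below 0.05. Olig2, Pdgfra, Mog, Ermn, Eno2, Nefl, Gad1 and Pecam1 were named after their values were seen. With the replicate number as a block, limma called 0 of all tested probes. It also called 0 without control replicate 3, stressed replicate 1 or stressed replicate 2. The calls of Mog, the dimmer Ermn probe, Eno2 and Pecam1 were therefore lost in each of those fits. When control replicate 2 was left out, limma called 1 gene higher and 1 lower for ependyma, 1 higher for microglia, 3 higher and 2 lower for neurons, 4 higher and 1 lower for endothelial cells and 0 for red blood cells. In the same fit it called 3 higher for oligodendrocyte precursors and 4 higher and 1 lower for oligodendrocytes, beside 42.4% of all tested probes.

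Schwann cells, which also make S100b, had a median of -0.74 over 6 tested of 8 genes, with Pmp22 the brightest. Their summed signal was 6.18, 3.87, 4.30 and 2.80 in control replicates 1 to 4 and 2.76, 3.13, 4.43 and 3.00 in stressed replicates 1 to 4. Control replicate 1 was far above the other rats here, and it read 5.50 for S100b. The part of Schwann cells in the S100b values was not tested. Of the 6 genes 5 had a lower mean in stressed rats, and limma called 1, beside 3.74% of all tested probes. It was Cdh19, named after its values were seen. Cdh19 was well above background on the 4 stressed arrays and on no control array, so it came into the test through the stressed rats alone and nothing is read from its call. Egr2 was also well above background on only 4 arrays, and Ncmap and Mlip are not on the array by those names.

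**Figure D5:**
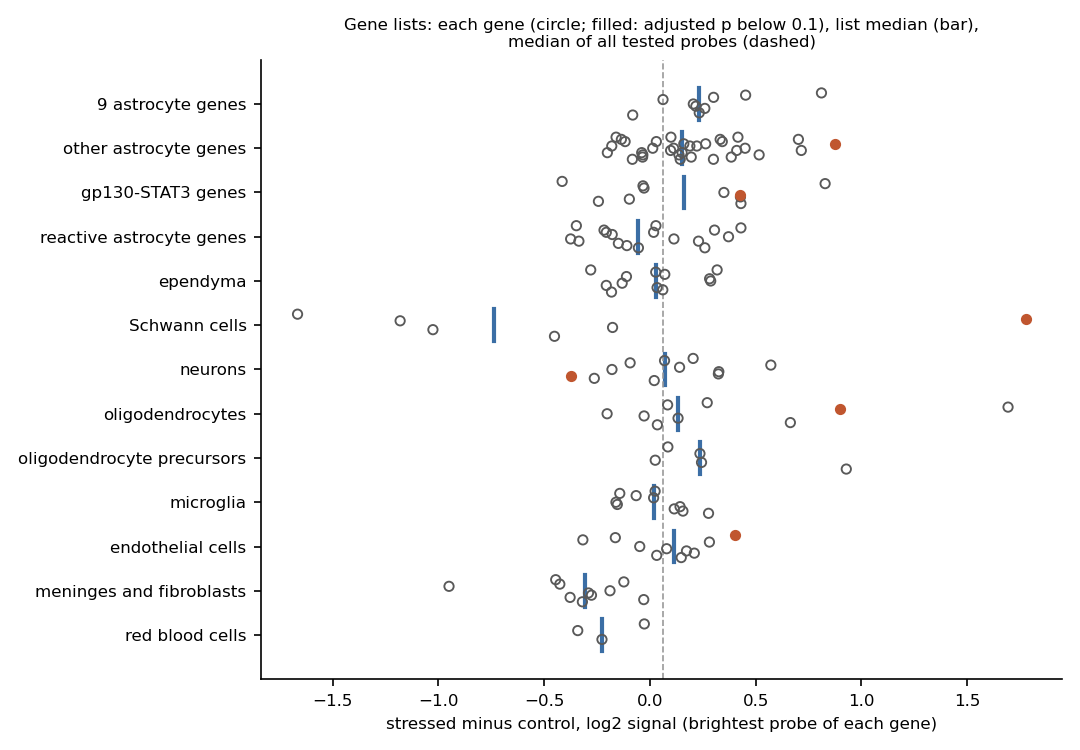
Stressed minus control difference in log2 signal (horizontal axis) of the brightest probe of each gene in the 9 astrocyte genes and in 12 other lists, with the median of each list as a bar and that of all tested probes, 0.06, as a dashed line. Filled circles passed at an adjusted p below 0.1 from limma, and none of the 9 astrocyte genes did, with medians of 0.23 for those genes and 0.15 for the other astrocyte genes.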

How the data were processed

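The authors deposited Agilent Feature Extraction 10.7.3.1 output per array. Per the file headers, its intensity values were background-subtracted and detrended within the array; no normalization between arrays was found, and the methods name dChip without a normalization or test. From these, outlier spots and 4259 control spots were dropped, log2 signals were scaled to the 75th percentile of the array, and spots of a probe were averaged. The 23677 probes well above background on at least 4 of 8 arrays were tested with limma 3.58.1 in R 4.3.3 (package data.table, version 1.17.8), adjusted over all of them by the Benjamini-Hochberg method, with a threshold of 0.1. The fit was tested on simulated data in which no array stood apart from its group, unlike control replicate 2 here. The brightest tested probe stood for a gene, and summed levels of a list add the unlogged signals.

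Genes named were the 9 astrocyte genes, every called gene of the other astrocyte, gp130-STAT3 and reactive astrocyte lists, Slc1a2, Slc1a3, Glul, Gja1, Kcnj10, Il6st, Stat3, Socs3 and Nes, and the 5 symbols most correlated with Gfap. Marker lists covered ependyma, Schwann cells, neurons, oligodendrocytes, their precursors, microglia, endothelial cells, meninges and fibroblasts, and red blood cells. Members and lists were chosen with earlier results of these data known. The 18 alternative fits were normexp correction with an offset of 50, quantile or median scaling, the deposited table of intensity values, a filter for dim probes left off or set to all 8 arrays, array weights, robust estimation with a variance trend, a replicate block, the 5′ minus 3′ covariate and leaving out each rat. An unmoderated model of Gfap against other genes, with and without control replicate 2, was chosen after seeing the data.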

Additional observations from a re-analysis of the deposited data

Results flagged for a closer look

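In 4 of the 58 groups of 4 rats that were examined, the highest rat lay so far from its neighbours that its gap to the nearest, as a share of the range of the group, passed Dixon's 95% critical value. By chance about 1 in 20 groups would do so, which is 2.9 of 58. Control replicate 2 was that rat in 3 of them. Its score on the first principal component was 46.1, with the other control rats between -56.3 and -39.4, a gap of 0.835 of the range. Control replicate 2 read -2.53 at the second Slc4a4 probe, against -2.81 to -2.76 in the other control rats, a gap of 0.833. For Kcnj10 it read -3.64, against -4.98 to -4.79 in the other control rats, a gap of 0.858. Jak1 read 0.22 in stressed replicate 2 and between -0.00 and 0.02 in the other stressed rats, a gap of 0.914.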

How the results depend on the processing

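Arrays give signal over background and no counts, and 4 rats a group on 1 slide limit every difference. The 885 probes called by limma (74.0% higher; 49.4% after quantile normalization, 48.3% with the median of each array, 88.4% after normexp correction and 47.3% with the 5′ minus 3′ covariate) became 215 with normexp correction, 3010 with no filter, 11983 with array weights, 2318 with the covariate and 0 to 10038 with a rat left out. The 36 probes that differed from Gfap became 4 with normexp correction, 77 with no filter, 12 with a filter on all 8 arrays, 4 with a variance trend, 20312 with array weights, 4 to 19343 with a rat left out, 0 unmoderated and 16897 unmoderated without control replicate 2. The 0 of 9 astrocyte genes became 6 with array weights, 1 with the covariate and 0 to 4 with a rat left out. The Gfap difference of 0.81 became 1.16 with array weights, 0.56 to 1.20 with a rat left out and -0.18 with the covariate. In each of these ranges the highest value was that without control replicate 2. The covariate also gave -0.030 for S100b, -0.35 for Fgfr3 (which passed), -0.11 for Slc4a4, -0.084 for Slc1a2, -0.0016 for Glul and -0.40 for Kcnj10 (which passed), and for Gfap minus another gene -0.34 (Aqp4), -0.15 (S100b), -0.078 (Aldh1l1), -0.24 (Aldoc), -0.28 (Vim), -0.068 (Slc4a4) and -0.26 (Sox9). Quantile normalization gave -0.32 for Aldoc and -0.039 for Nes, and the median of each array -0.058 for S100b and -0.091 for Nes. With a rat left out, S100b ran from -0.015 to 0.10 and Nes from -0.087 to 0.18. The cause of these changes was not tested. With the replicate number as a block, limma called 0 probes (4292 at an unadjusted p below 0.05), 0 astrocyte genes, and 78 probes against Gfap, and the calls of Ppap2b and Jak1 were lost. Deviations of rats with the same number correlated by 0.0951, 0.120, -0.0869 and 0.305, not all above 0.1, not every rat correlated best with its own number, and a number also marks 1 slide column in both groups.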
